A study of Mus musculus with 22 samples.

Results

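The glycolytic enzyme transcripts of mouse esophageal epithelium were followed through 10 genes, chosen by name with earlier results of these data known. They are Hk1, Hk2, Pfkp, Aldoa, Tpi1, Pgk1, Pgam1, Eno1, Pkm and Ldha. All 10 are among the 17541 genes listed in the deposited counts. Gapdh, the enzyme between Tpi1 and Pgk1 in the pathway, is not in the set. The epithelium was peeled from C57BL/6 mice and profiled cell by cell with inDrop, a droplet method in which each captured transcript molecule carries a unique molecular identifier (UMI). Control mice were untreated, 3 of them young (3 to 4 months) and 3 old (18 to 20 months). Mice with eosinophilic esophagitis (EoE) had MC903, a vitamin D analog, and ovalbumin (OVA) on the ears for 12 days. They then received OVA by gavage at 500 mg/ml from day 15 and in the water at 15 g/L, over a protocol of 32 days. Of these mice 2 were young (6 to 8 weeks) and 2 old (19 to 20 months). The 3 mice with esophageal squamous cell carcinoma (ESCC), aged 8 to 10 months, drank the carcinogen 4NQO at 100 µg/ml for 16 weeks, followed by 8 weeks without it. No mouse given MC903, OVA or a vehicle alone is among these libraries, and no control mouse had the age of the ESCC mice.

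Glycolysis turns glucose into pyruvate in the cytosol and needs no oxygen. Hexokinases trap glucose in the cell by phosphorylating it, phosphofructokinase commits the sugar to the pathway, aldolase splits it, and the enzymes that follow harvest ATP and NADH. Lactate dehydrogenase then regenerates NAD from pyruvate and NADH. Several of these genes are known targets of hypoxia-inducible factor 1 (HIF-1), and a rise of glycolysis even where oxygen is present is known as the Warburg effect. In stratified squamous epithelium, basal cells divide, and their daughters move toward the lumen and differentiate.

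To show what distinguishes the genes before their transcription start, the letters ACGTG, the core of the HIF-1 element, were searched on both strands (as ACGTG or CACGT) in the 250 bases before each RefSeq start site (GRCm38.p6). Of all 32851 RefSeq promoters, 16.6% held a match, and of all 27025 genes 18.5% had one. Of the 17 start sites of the 10 genes, 7 did, and these belonged to 6 genes. The windows of 2 Aldoa start sites overlap, and their match is the same one. The 4 windows below are shown because they fall outside annotated exons and belong to both hexokinases, to Pgk1 and to Ldha. The window of the second Ldha start site, which also falls outside annotated exons, had no match and is not shown. Matches are in capitals. A match is only a match of letters, and overlapping matches of both strands form the longer CACGTG.

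Hk1, chr10:62379909-62380158, minus strand: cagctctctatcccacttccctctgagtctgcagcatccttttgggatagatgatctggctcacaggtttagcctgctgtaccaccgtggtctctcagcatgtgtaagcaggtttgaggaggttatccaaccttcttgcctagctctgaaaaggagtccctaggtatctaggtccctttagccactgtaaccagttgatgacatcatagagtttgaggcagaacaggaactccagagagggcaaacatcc
Hk2, chr6:82774455-82774704, minus strand: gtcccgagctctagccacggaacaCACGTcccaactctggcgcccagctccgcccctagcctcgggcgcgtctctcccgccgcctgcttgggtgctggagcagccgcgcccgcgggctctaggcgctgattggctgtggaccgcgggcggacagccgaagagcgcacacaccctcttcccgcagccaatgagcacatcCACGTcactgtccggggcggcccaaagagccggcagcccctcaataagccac
Pgk1, chrX:106186850-106187099, plus strand: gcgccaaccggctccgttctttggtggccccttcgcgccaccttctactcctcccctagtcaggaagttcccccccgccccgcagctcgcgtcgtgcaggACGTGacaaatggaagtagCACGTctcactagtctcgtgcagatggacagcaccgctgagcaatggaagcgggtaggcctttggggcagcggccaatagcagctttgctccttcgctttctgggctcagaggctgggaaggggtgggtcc
Ldha, chr7:46845554-46845803, plus strand: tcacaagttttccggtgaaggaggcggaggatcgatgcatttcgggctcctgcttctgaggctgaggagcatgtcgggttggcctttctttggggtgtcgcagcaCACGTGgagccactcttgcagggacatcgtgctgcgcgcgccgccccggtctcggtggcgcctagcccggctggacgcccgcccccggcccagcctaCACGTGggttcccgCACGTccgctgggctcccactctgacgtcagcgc

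Hk1 had no match in this window, and Hk2 had 2, which began 226 and 52 bases before the start. Pgk1 had 2, at 150 and 131 bases. Ldha had 5 before the first of its 2 start sites, the nearest at 34 bases, and none before the second. Those at 145 and 144 bases overlap as CACGTG, as do those at 48 and 47 bases. Pgam1 had 1 match, as did 1 of 2 start sites of Pkm and 2 of 3 of Aldoa. The windows of Pfkp, Tpi1 and Eno1 had none.

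Genes with many near-identical copies can lose or gain reads in counting, so annotated copies were counted in GENCODE M21, which covers the GRCm38 assembly. A copy was another gene sharing at least 10% of the 31-base sequences in the last 300 bases of the transcript. Among the 10 genes, Eno1 had such a copy, Eno1b, which shared 90.7% of them. For comparison, 8.00% of the 16051 listed coding genes had at least 1. Over whole transcripts, Ldha had 5 copies, Eno1 4, Pgk1 3, and Aldoa, Pgam1 and Pkm 2 each, while Hk1, Hk2, Pfkp and Tpi1 had none. The name Aldoa belongs to 2 neighboring annotated genes, whose counts cannot be told apart. Coding genes on the opposite strand overlap Pfkp (Pitrm1), Aldoa (Fam57b) and Tpi1 (Spsb2), and the strand setting of the counting is not given in the sources used here.

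The 22 libraries held 1500 cells per condition, and mice were the replicates. Both libraries of a control or ESCC mouse shared 10.9% to 20.6% of the barcodes of the smaller one. In 239 of 239 shared barcodes the profiles matched best to each other, so libraries were pooled per mouse. A shared barcode was counted in each library, so cell numbers of control and ESCC mice can count a cell again. EoE mice had 1 library each. Whether molecules were also counted again was not tested. Cells within the study's stated limits on genes and UMIs were used, without cells holding 3 or more UMIs of non-epithelial markers. Some cells of other types remained, among them a cluster of 40 ESCC cells led by Cd74, H2-Aa and Lyz2. Of the deposited cells, 1500 in controls, 1494 in ESCC and 144 in EoE lay within the limits on genes and UMIs. The cells used numbered 1493 in controls, 1467 in ESCC and 143 (9.53%) in EoE. Control mice had 111043 to 427752 UMIs each, EoE mice 6245 to 41909 and ESCC mice 1231048 to 2094635. A count of 0 over a group allows a level of up to 1.72 CPM (UMIs of a gene relative to all UMIs, scaled to the usual common total) in controls, 30.6 in EoE and 0.593 in ESCC. EoE values are therefore also given over all deposited cells, where this limit was 10.1 CPM. CPM below were scaled by the trimmed mean of M-values (TMM), except those of cell clusters, of the class plot and of the differentiation paragraph, which are not TMM-scaled. None of the 6 eosinophil and mast cell markers had a UMI in the cells used of any group, and 12 of 13 immune markers had none in EoE.

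Mice with ESCC differed from control mice in 3 of the 9 enzymes that passed the filter on low counts. Pkm and Aldoa were higher and Tpi1 was lower, while Hk1, Hk2, Pfkp, Pgk1, Eno1 and Ldha did not pass the test. Over all 5863 genes tested, 17.9% were called higher and 16.6% lower by edgeR at an adjusted p below 0.05. The median log2 fold change was 0.10 over the 9 enzymes and 0.01 over all genes. Pgam1 did not pass the filter. On means of per-cell CPM tested with limma, in place of summed counts, the values were 1.95, 0.71 and -1.33 for Pkm, Aldoa and Tpi1 and no enzyme was called. The adjusted p for these 3 were 0.258, 0.756 and 0.344 by limma, and Pkm and Tpi1, 2 of the 9 enzymes, had an unadjusted p below 0.05. Of all 5863 genes, limma called 137 higher and 121 lower, far fewer than edgeR. The summed level of the 10 genes was 2452 ± 177 CPM (SD, n = 6) in controls and 3058 ± 304 CPM (SD, n = 3) in ESCC, with no test made of the sum.

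**Figure D1:**
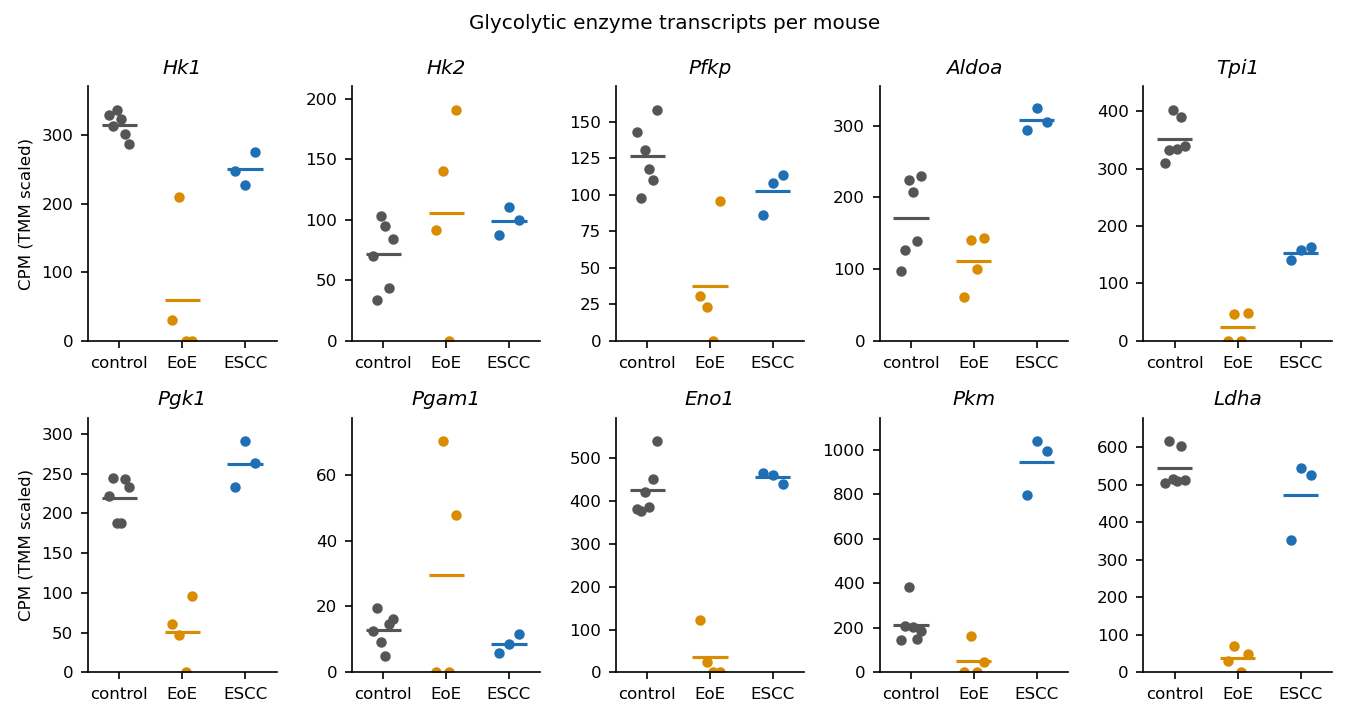
TMM-scaled CPM (vertical axis, a separate scale for each gene) of the 10 enzymes in the cells used, for control, EoE and ESCC mice. Each point is 1 mouse and the line is the group mean. Pkm and Aldoa lie above all controls in the 3 ESCC mice, Tpi1 lies below them, and most EoE points lie near 0.

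Pkm encodes pyruvate kinase of the M type, which makes pyruvate and ATP in the last step of the pathway. Its level in the 6 control mice ran from 143 to 384 CPM with a median of 196. In the ESCC mice it was 797 in mouse 8M, 1037 in mouse 17F and 994 in mouse 17M. All 3 ESCC mice lay above every control, and 4147 UMIs in ESCC and 322 in controls stood behind these levels. The difference was 4.67-fold (log2 fold change 2.22, SE 0.24, adjusted p = 5.96e-09, edgeR). Control mouse 3 was the highest control at 384 CPM, with 41 UMIs, and without each mouse in turn the log2 fold change ran from 2.12 to 2.39. Counts per gene do not separate the M1 and M2 splice forms.

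Aldoa encodes the aldolase that cleaves fructose 1,6-bisphosphate. It ran from 98 to 229 CPM in controls with a median of 174, and was 294 in mouse 8M, 325 in 17F and 306 in 17M. The groups did not overlap. The log2 fold change was 0.87 (SE 0.20, adjusted p = 0.00103, edgeR), or 1.83-fold.

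Tpi1 encodes triosephosphate isomerase, which interconverts the 2 products of aldolase. Controls ran from 309 to 403 CPM with a median of 336. ESCC mice had 140 (8M), 158 (17F) and 163 (17M), all below the lowest control. The log2 fold change was -1.17 (SE 0.18, adjusted p = 4.66e-06, edgeR), a level 0.444 of that in controls. Tpi1 thus moved in the opposite direction to Aldoa, the step before it.

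The other enzymes showed smaller differences. Hk1, the constitutive hexokinase, had means of 315 ± 18.4 CPM (SD, n = 6) in controls and 250 ± 24.7 (SD, n = 3) in ESCC. Its 3 ESCC mice lay below all controls, but the log2 fold change of -0.33 (interval -0.72 to 0.06) did not pass the test (adjusted p = 0.210, edgeR). Intervals here are 95%, from the normal quantile times the SE. Hk2, the inducible hexokinase, had 0.48 (0.03 to 0.93, adjusted p = 0.108), which passed the threshold under DESeq2. Pfkp, a platelet-type phosphofructokinase subunit, had -0.30 (-0.68 to 0.08). Pgk1, phosphoglycerate kinase and the first ATP-yielding step, had 0.25 (-0.08 to 0.58). Eno1, the enolase that makes phosphoenolpyruvate, had 0.10 (-0.28 to 0.47). Ldha, the M subunit of lactate dehydrogenase, had -0.20 (-0.56 to 0.17). Pgam1, phosphoglycerate mutase, was at 12.9 ± 5.16 CPM (SD, n = 6) in controls and 8.77 ± 2.93 (SD, n = 3) in ESCC, from 21 and 40 UMIs.

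**Figure D2:**
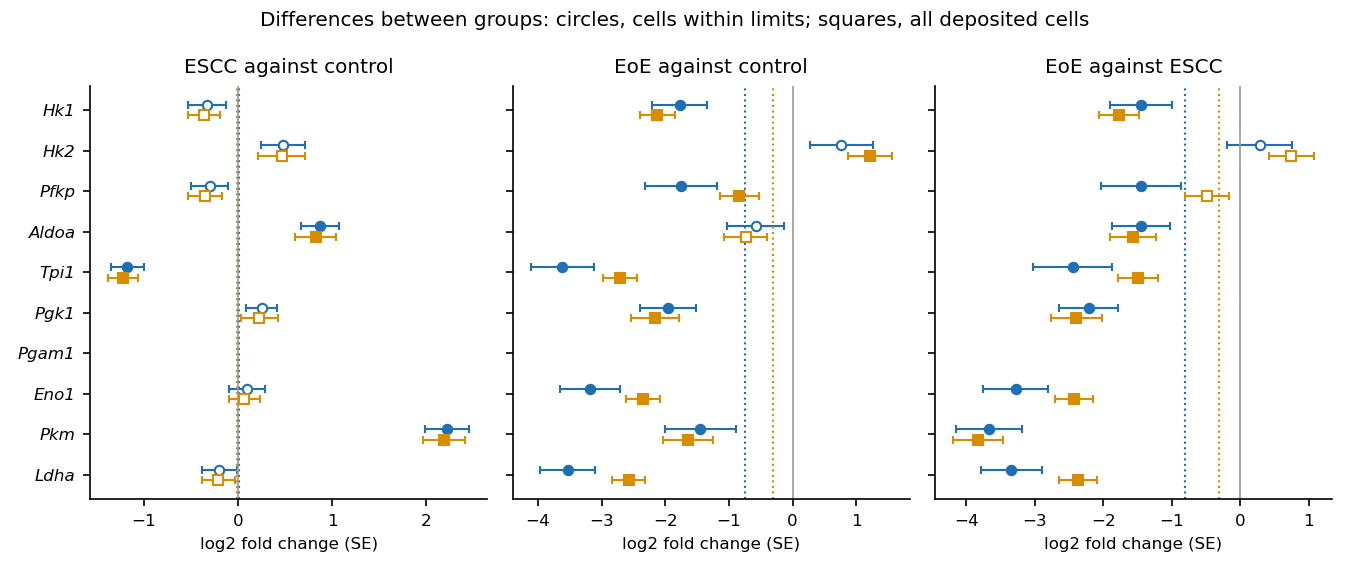
Log2 fold changes (horizontal axis) with their standard errors for 9 enzymes in the 3 comparisons. Blue circles are cells within the limits and orange squares all deposited cells, filled symbols have an adjusted p below 0.05, and dotted lines mark the median of all genes in the same color. In ESCC against control the symbols lie on either side of the median, while in EoE all but Hk2 lie below 0.

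Since basal cells made up 69.6% ± 1.46 (SD, n = 3) of cells in ESCC and 53.1% ± 9.89 (SD, n = 6) in controls, the enzymes were also compared within classes. Clusters of control cells were classed by the balance of Krt5, a basal keratin, and Krtdap, a differentiation gene, as basal, suprabasal or late (most Krtdap). Cells of every condition took the class of their nearest control cells from other mice. In the basal class 13.3% of 5148 genes were called higher and 11.3% lower. Pkm rose there by a log2 fold change of 2.09 (SE 0.18), Aldoa rose by 1.23 (SE 0.21), and Tpi1 had -1.20 (SE 0.19). In the suprabasal class (20.2% of 1874 genes higher, 15.0% lower) the values were 2.29 (SE 0.26), 1.06 (SE 0.26) and -0.71 (SE 0.23). In the late class (18.1% of 2496 genes higher, 15.0% lower) they were 2.81 (SE 0.27), 0.82 (SE 0.25) and -1.0 (SE 0.26). All 9 differences passed the test (adjusted p from 5.48e-10 to 0.0131, edgeR), and no other enzyme was called in any class. Leaving out 1 mouse ended the call of Tpi1 once in the suprabasal class and that of Aldoa once in the late class.

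**Figure D3:**
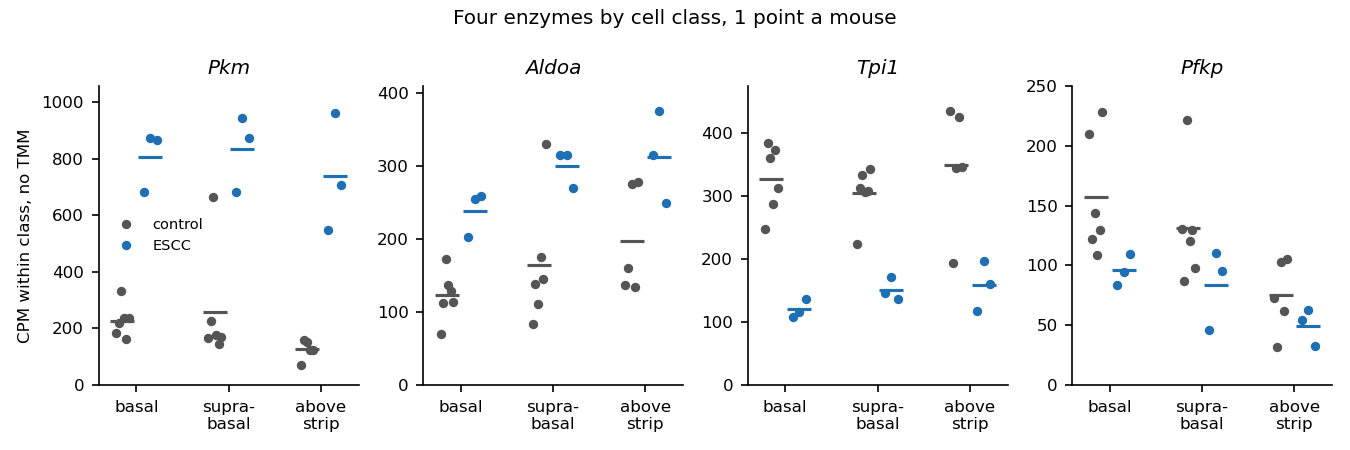
CPM within a cell class, not TMM-scaled (vertical axis), of Pkm, Aldoa, Tpi1 and Pfkp in control (gray) and ESCC (blue) mice, with 1 point a mouse and the mean as a line, where "above strip" is the late class. Pkm is higher and Tpi1 lower in ESCC in each class on average, and Pfkp is lowest in the late class in both conditions.

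Markers of other cell types differed between these groups. The summed level of 13 immune markers ran from 169 to 309 CPM in ESCC and from 32.3 to 78.2 in controls, with 0 and 6 of them without a UMI. That of 12 muscle markers ran from 25.3 to 45.4 and from 0 to 25.7 CPM, with 3 and 9 without a UMI. That of 7 fibroblast markers ran from 35.8 to 184 and from 136 to 524 CPM. Without TMM scaling, Pkm was at 619 to 963 CPM in each of 10 clusters of ESCC cells, against 84.2 to 220 CPM in the 5 clusters of control cells. The ESCC cluster of 40 cells led by Cd74, H2-Aa and Lyz2, genes of antigen-presenting myeloid cells, had 711 CPM, inside the range of the other clusters. Tpi1 was at 112 to 167 CPM in the ESCC clusters and at 265 to 446 CPM in those of controls. For Aldoa the clusters overlapped, at 196 to 343 and 67.1 to 237 CPM. Genes with an annotated copy at the transcript end were called higher in ESCC in 47.5% of 385 cases, against 15.5% of 5403 without one. Pkm and Aldoa have none at the end and 2 each over the whole transcript, whose part in the result was not tested.

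In mice with EoE, 7 of the 9 enzymes tested were lower than in controls: Hk1, Pfkp, Tpi1, Pgk1, Eno1, Pkm and Ldha. Aldoa and Hk2 did not pass the test. Of all genes 25.0% were called lower and 9.45% higher, and the median of all genes was itself at a log2 fold change of -0.75, so distances from it are given too. The median of the 9 enzymes was -1.78. Relative to the median of all genes, Hk1 was at -1.03, Pgk1 at -1.22, Eno1 at -2.44, Tpi1 at -2.87 and Hk2 at 1.51. Over all deposited cells, where the median of all genes was -0.31 and 29.3% of genes were called lower and 21.4% higher, the same 7 enzymes were lower and Hk2 was higher. The comparison shares its controls with that of ESCC. In summed counts, fewer cells of a type and less RNA per cell cannot be told apart.

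Depth limited each EoE value. The cells used held 70 UMIs of the 10 genes together, and mouse 11 contributed 11 cells and 1 of these UMIs. All deposited cells held 204. Of the EoE cells used, 13.5% ± 6.97 (SD, n = 4) fell in the basal class, and the summed level of the 8 basal markers ran from 1679 to 2969 CPM, against 13634 to 20165 in controls. The 8 suprabasal markers summed to 97199 to 123900 CPM, against 29256 to 55585. Most of this sum was the keratin Krt4, whose mean was 81597 CPM with EoE, against 26497 without. By edgeR, 3 of the 8 were called higher in the EoE cells used and 1 lower. The lower one was Atp1b3 (log2 fold change -1.67, SE 0.24, adjusted p = 3.17e-06, edgeR). Over all deposited cells 2 of the 8 were higher and 4 lower, so the sum does not stand for each marker. Of 7 endothelial markers, 2 had UMIs in the EoE cells used, and the sum of the 7 ran from 70.1 to 239 CPM in EoE and from 4.89 to 22.6 in controls. Nearly all of it was Pecam1, an adhesion molecule of endothelial and blood cells, while Cdh5, Kdr, Cldn5, Esam and Plvap had no UMI. Over all deposited cells, controls had 2.63 ± 4.11 CPM (SD, n = 6) of Pecam1 and mice with EoE 361 ± 64.6 (SD, n = 4), with Cdh5, Kdr, Cldn5 and Plvap at 0 in EoE. There the 13 immune markers summed to 37.2 to 162 CPM in EoE and 30.0 to 70.3 in controls, and the 7 fibroblast markers to 252 to 574 and 171 to 749. Among the latter Sparc had a log2 fold change of 1.51 (SE 0.33, adjusted p = 0.000509, edgeR), while 2 of the 7 had no UMI in EoE. Sparc was also among the leading genes of a basal cluster of 561 control cells, so it does not mark fibroblasts alone here. The part of other cell types in the enzyme differences was not tested.

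Ldha was at 505 to 616 CPM in controls with a median of 514. EoE mice 9, 10, 11 and 12 had 30.5, 70.1, 0 and 47.8 CPM, from 5 UMIs. Every EoE mouse lay below every control. The log2 fold change was -3.54 (SE 0.43, adjusted p = 1.60e-07, edgeR), 2.79 below the median of all genes. With all deposited cells the 4 mice had 99.2, 53.0, 64.9 and 115 CPM, and the log2 fold change was -2.58 (SE 0.26).

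Tpi1 had 0, 46.8, 0 and 47.8 CPM in mice 9, 10, 11 and 12, all below the lowest control. These came from 3 UMIs, against 578 in controls, a ratio of 0.0924 (95% exact counting interval 0.0190 to 0.271). The log2 fold change was -3.62 (SE 0.50, adjusted p = 1.29e-06, edgeR), and -4.43 without mouse 10. With all deposited cells it was -2.71 (SE 0.26), with each of the 4 mice between 37.2 and 57.4 CPM and the controls between 289 and 361.

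Hk1 was at 30.5, 210, 0 and 0 CPM in mice 9, 10, 11 and 12. Of its 10 UMIs in EoE, 9 came from mouse 10. All 4 were below the lowest control at 288 CPM (log2 fold change -1.78, SE 0.43, adjusted p = 0.00208, edgeR), and over all deposited cells the value was -2.12 (SE 0.28). Without mouse 10 it was -4.29.

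Pgk1 had 61.1, 46.8, 0 and 95.6 CPM in the EoE mice against 187 to 244 in controls (log2 fold change -1.96, SE 0.44, adjusted p = 0.00105, edgeR). Pfkp had 30.5, 23.4, 0 and 95.6 CPM against 97.8 to 158 in controls. Neither gene overlapped between the groups. For Pfkp the log2 fold change was -1.75 (SE 0.56, adjusted p = 0.0175, edgeR) in the cells used, -2.43 without mouse 12, and -0.84 (SE 0.31) over all deposited cells, where mouse 12 overlapped the controls.

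The call of Pkm depended on the mice and cells. It had 0, 164, 0 and 47.8 CPM in mice 9, 10, 11 and 12, so that mouse 10 lay within the control range. The log2 fold change was -1.45 (SE 0.56, adjusted p = 0.0426, edgeR), 0.70 below the median of all genes. It ran from -3.65 to -1.01 as mice were left out, and the call was lost in 4 of these 10 fits: without EoE mouse 9, 11 or 12, or without control mouse 3. All deposited cells gave -1.64 (SE 0.39, adjusted p = 0.00114). Leaving out EoE mouse 9 or 10 likewise ended the call of Pfkp. The numbers of enzymes called ran from 5 to 7 over these fits.

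Hk2 and Aldoa were not called in the cells used. Hk2 was at 91.6, 140, 0 and 191 CPM in mice 9, 10, 11 and 12 and at 34.2 to 103 in controls, with overlap. Its log2 fold change was 0.76 (interval -0.20 to 1.73, adjusted p = 0.231, edgeR). Over all deposited cells it was 1.21 (SE 0.34, adjusted p = 0.00460), from 44 UMIs in EoE and 122 in controls, with 124, 159, 64.9 and 258 CPM in the 4 mice. There 3 of 4 EoE mice lay above all controls. With all deposited cells thinned to a common depth it was 0.99 and did not pass the test. Aldoa was at 61.1, 140, 100 and 143 CPM and overlapped the controls, with a log2 fold change of -0.58 (interval -1.45 to 0.30, adjusted p = 0.324, edgeR). Aldoa was thus 0.17 above the median of all genes, and 0.43 below it over all deposited cells. In the thinned cells Aldoa was called lower too (-0.84, SE 0.36, adjusted p = 0.0407, edgeR), so that 8 of 9 enzymes were lower there. Of all 1879 genes tested in the thinned cells, 629 were called lower and 605 higher. Pgam1 had 4 UMIs in the EoE cells used and 21 in controls, a ratio of 3.39 with a counting interval of 0.846 to 10.1.

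In EoE against control, Eno1 and its copy Eno1b moved in opposite directions in the counts. Over all deposited cells, Eno1 had 718 UMIs in controls and Eno1b 1. In the EoE mice 9, 10, 11 and 12, Eno1 had 8, 3, 4 and 7 UMIs and Eno1b 25, 15, 11 and 12. In ESCC they had 2001 and 58. Eno1b was thus the more frequent of the pair in all 4 EoE mice and in no other mouse. Eno1 alone had a log2 fold change of -3.18 (SE 0.47, adjusted p = 3.81e-06, edgeR) in EoE against control. Mouse 9 held 4 of its 5 UMIs in the EoE cells used, and without that mouse the value was -5.03. With the UMIs of both genes added it was -1.14 (SE 0.36, adjusted p = 0.0149, edgeR). The summed level over all deposited cells was 391 ± 61.98 CPM (SD, n = 6) in controls against 291 ± 80.3 (SD, n = 4) in mice with EoE, with overlap. How reads were divided between the 2 genes was not tested.

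**Figure D4:**
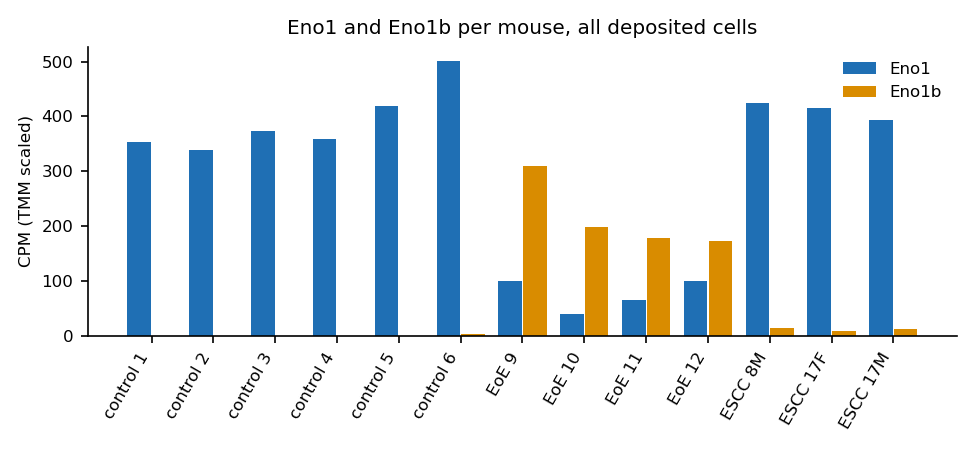
TMM-scaled CPM (vertical axis) of Eno1 (blue) and Eno1b (orange) in each of the 13 mice, over all deposited cells. Eno1b is at 172 to 310 CPM in the 4 EoE mice, above Eno1, and at 3.00 CPM or less in the controls.

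Within classes, EoE could be tested in the cells used for suprabasal and late cells. In the suprabasal class, where 23.7% of 1874 genes were called lower and 9.02% higher, 4 of 7 enzymes tested were lower: Hk1, Tpi1, Eno1 and Ldha. In the late class, where 20.8% of 2496 genes were called lower, 5 of 9 were lower: these 4 and Pgk1. With all deposited cells, 7 of 7 were lower in the suprabasal class, where 35.2% of 1814 genes were called lower and 31.6% higher. Aldoa was 1 of these 7 (-1.11, SE 0.47, adjusted p = 0.0360, edgeR). In the cells used, Ldha had -4.05 (SE 0.82) in suprabasal and -3.22 (SE 0.51) in late cells. Tpi1 had -3.16 (SE 0.91) and -3.63 (SE 0.68), beside medians of all genes of -0.83 and -0.36. These fits held 3 EoE mice per class and few UMIs. In suprabasal cells the EoE mice had 1 UMI each of Ldha, Tpi1 and Hk1 and 2 of Eno1. In late cells they had 4 of Ldha and 2 of Tpi1. In the basal class, open to a test over all deposited cells alone, 27.9% of 3633 genes were called lower, and 6 of 9 enzymes were: Hk1, Tpi1, Pgk1, Eno1, Pkm and Ldha. Hk2 was not called in basal or late cells and had too few UMIs to be tested in suprabasal ones.

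EoE and ESCC mice were compared directly. Of the 9 enzymes 8 were lower in EoE, where 30.0% of genes were called lower, 11.7% were called higher and the median of all genes was -0.81. With all deposited cells 7 were lower, beside 32.9% of genes called lower and 23.6% higher. Pkm differed by -3.67 (SE 0.48, adjusted p = 3.76e-07, edgeR), and the highest EoE mouse, at 164 CPM, was below the lowest ESCC mouse, at 797. Without EoE mouse 10 it was -5.85. Ldha differed by -3.34 (SE 0.45) and Tpi1 by -2.44 (SE 0.57), or -3.24 without EoE mouse 10. Eno1 differed by -3.28, and by -5.10 without EoE mouse 9. Hk1 differed by -1.45 and by -3.95 without EoE mouse 10, and its call was lost without EoE mouse 9 or 12. Aldoa differed by -1.45 (SE 0.42, adjusted p = 0.00730, edgeR). Pfkp differed by -1.45 (SE 0.59, adjusted p = 0.0468, edgeR), a call lost in 5 of 7 fits without a mouse (without EoE mouse 9, 10 or 11, or ESCC mouse 17F or 17M). It differed by -2.11 without EoE mouse 12 and by -0.49 (SE 0.32) over all deposited cells, where it was not called. Hk2 had 0.29 (interval -0.64 to 1.21) and did not pass the test.

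Age was examined in the controls. No difference between old and young controls was called in any of the 9 enzymes tested. Of 5149 genes, 0.0777% were called higher and 0.0194% lower in old mice by edgeR, and none of the enzymes had an unadjusted p below 0.05, under edgeR or DESeq2. The log2 fold changes ran from -0.21 in Pfkp (SE 0.26) to 0.34 in Pkm (SE 0.28). The level of Pkm was 180 ± 34.1 CPM (SD, n = 3) in young and 247 ± 122 (SD, n = 3) in old controls. Nor was a change of the EoE difference with age called in any enzyme by the interaction test, in which 1 of 3211 genes was called (0.0311% lower, 0 higher). That test rests on 2 young and 2 old EoE mice, and the young EoE mice were younger than the young controls. Its log2 fold changes ran from -7.76 to 1.32 over the 9 enzymes, too imprecise to show that none changed. In it Hk1 had an unadjusted p of 0.0110 and an adjusted p of 0.571 by edgeR. Hk1 had no UMI in the cells used of the old EoE mice, and 7 UMIs over all their deposited cells.

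Across differentiation in control mice the enzymes are described without a test, because classes were built from these cells, and CPM are not TMM-scaled. Of the 5 control clusters, the summed level of the 10 genes ran from 1969 to 2597 CPM. Between the lowest and the highest cluster, Aldoa spanned 3.53-fold, Hk2 3.03-fold, Pkm 2.61-fold and Pfkp 2.04-fold, while Hk1, Tpi1, Pgk1, Eno1 and Ldha spanned 1.36-fold to 1.69-fold. Hk2 had 40.9 ± 31.3 CPM (SD, n = 6) in basal and 117 ± 88.8 (SD, n = 6) in suprabasal cells, higher in 5 of 6 mice, from 33 and 43 UMIs. Hk1 had 250 ± 30.1 CPM (SD, n = 6) in basal and 351 ± 36.5 (SD, n = 6) in suprabasal cells, higher in 6 of 6 mice. Eno1 had 329 ± 62.4 and 487 ± 88.4 CPM, also higher in 6 of 6. Pfkp had 157 ± 49.7 CPM in basal and 75.1 ± 30.5 (SD, n = 5) in late cells, and Pkm had 228 ± 58.6 and 127 ± 34.3, both lower in late cells in 5 of 5 mice. Aldoa went the other way, at 123 ± 33.9 in basal and 197 ± 73.0 in late cells, higher in 5 of 5. Ldha had 499 ± 74.0 in basal and 557 ± 104 in late cells, higher in 2 of 5, and so did not differ beyond its spread. In ESCC the decline of Pfkp was again present in 3 of 3 mice (95.8 ± 13 CPM in basal, 49.7 ± 15.4 in late cells). That of Pkm was present in 2 of 3 (807 ± 107 and 739 ± 208).

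The rest of the pathway was read from lists of its other genes, whose counts in ESCC stand beside 17.9% of all genes called higher and 16.6% lower. Of 16 other glycolytic isozymes 12 are listed and 4 were tested, and 2 were higher in ESCC. Gpi1, the isomerase after hexokinase, was at 147 ± 17.9 CPM (SD, n = 3) against 103 ± 33.7 (SD, n = 6). Gapdh had 8594 UMIs in ESCC and 5 in controls in the cells used, and 92 annotated copies. Of 3 glucose and lactate carriers tested, 2 were higher in ESCC. Slc2a1, the glucose transporter GLUT1, had a log2 fold change of 1.13 (SE 0.21, adjusted p = 7.37e-05, edgeR), and Slc16a1, a lactate carrier, 0.67 (SE 0.23, adjusted p = 0.0219). Of 5 regulators tested, 1 was higher and 3 lower. Hif1a, the oxygen-regulated subunit of HIF-1, was at 503 ± 328 CPM in ESCC and 121 ± 16.4 in controls. Egln3, a prolyl hydroxylase that marks HIF for destruction, was at 10.6 ± 2.46 and 161 ± 55.9. Fbp2, a fructose bisphosphatase that runs the phosphofructokinase step backward, was at 33.4 ± 15.4 and 88.9 ± 30.9.

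Genes that take pyruvate into the mitochondrion gave 1 higher and 2 lower of 10 tested in ESCC. Pdk4, a kinase that switches off pyruvate dehydrogenase, had a log2 fold change of -3.46 (SE 0.44, adjusted p = 5.29e-07, edgeR). Pdha1 and Pdhb, subunits of that enzyme, had -1.14 (SE 0.20) and 1.04 (SE 0.21). Of 7 pentose phosphate enzymes tested 2 were higher and 2 lower, with G6pdx, the entry enzyme, at 0.76 (SE 0.19). Of 19 genes tested from the citric acid cycle list 3 were higher and 2 lower, which is below both shares over all genes. That list includes Got2, a transaminase and not an enzyme of the cycle itself, which had 1.27 (SE 0.18).

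In EoE no gene of these lists was higher in the cells used. Lower were 1 of 4 isozymes, 2 of 3 carriers, 3 of 5 regulators, 5 of 10 pyruvate genes, 4 of 7 pentose phosphate enzymes and 11 of 19 citric acid cycle genes, beside 25.0% of all genes. The share of isozymes equals that of all genes. The list medians lay between -1.81 and -0.98, against -0.75 over all genes. Over all deposited cells, where 21.4% of all genes were higher and 29.3% lower, 1 citric acid cycle gene was higher and 11 were lower, and the pentose phosphate median was -1.26 against -0.31 over all genes. Taldo1, a transaldolase, was at 398 ± 55.9 CPM (SD, n = 6) in controls against 13.5 ± 15.8 (SD, n = 4) in the EoE cells used. Myc, a growth regulator, was at 326 ± 108 against 73.0 ± 83.9 CPM.

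The 5 genes whose levels followed the 10 enzymes most closely over the 13 mice, among 3365 genes of sufficient level, were Pdap1, Tmpo, Hpgd, Ppa1 and Acin1. Their correlation with the mean standardized level of the enzymes was 0.979 to 0.983. Each of the 5 had its lowest group mean in EoE. The mice share their depth within a group, so these values are a description.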

How the data were processed

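Sources. Cells of 22 libraries from 13 mice were counted by the authors, who extracted barcodes with UMI-tools 1.0.0, aligned reads with STAR 2.7.3 and assigned them with featureCounts to GRCm38. They state limits on genes and UMIs per cell and a draw of 1500 cells per condition, but 144 of the 1500 deposited EoE cells lie within those limits. The deposited values are UMI counts, whole numbers without normalization. No column was left unmapped.

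Computation. Cells with 250 to 3500 genes and 100 to 9500 UMIs were used, without cells holding 3 or more UMIs of non-epithelial markers. Counts were summed per mouse and fitted in edgeR 4.0.16 by its quasi-likelihood test, with TMM factors, its default filter on low counts and p-values adjusted by Benjamini-Hochberg over all genes (threshold 0.05). A single fit held the 13 mice in 3 groups. Within classes, mice with at least 10 cells entered. Alternatives used DESeq2 1.42.0 and limma 3.58.1 (log2 of CPM plus 10). Clusters of control cells (scanpy 1.11.5, 2000 variable genes, 50 components, 15 neighbors, resolution 1) were classed by the difference of mean log10 Krtdap and Krt5, with a strip of 0.3 to either side as suprabasal. Doublets were not called. The fit was run on simulated data, where set limits on recovered and false calls were required of the ESCC comparison but not of the EoE one. Depths of 6245 to 2094635 UMIs per mouse limit the precision of low genes, and intervals on counts cover counting error alone.

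All 10 enzymes are named. Of other lists, the named genes are among the 3 with the largest fold past the threshold at an average log2 CPM of at least 4, and 1 result that this rule would name is not reported here. The genes most like the enzymes were the 5 with the highest Pearson correlation, at an average log2 CPM of at least 6. The members and lists were chosen with earlier results of these data known. Promoters came from RefSeq and gene models from GENCODE M21. No batch is named in the labels, so batch and condition cannot be told apart.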

Additional observations from a re-analysis of the deposited data

Results flagged for a closer look

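In 2 of the 20 groups of 4 to 6 mice examined, 1 mouse lay far from the others by Dixon's criterion, which chance meets in about 1 of 20 groups. Hk1 was at 210 CPM in EoE mouse 10, from 9 UMIs, against 30.5 CPM in the next mouse. Pkm was at 384 CPM in control mouse 3, from 41 UMIs, against 210 CPM in the next. Eno1b, a gene outside the comparisons, had 63 UMIs in EoE and 58 in ESCC over all deposited cells, and 1 in controls.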

How the results depend on the processing

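Called differences kept their direction in all alternatives run, and 10 of 212 lost the threshold beside the fits that left out a mouse. Of enzymes called, ESCC against control gave 3 in the main fit, 5 with DESeq2 (Hk2 and Pgk1 added) and 0 on means of per-cell CPM. On those means limma called 137 of 5863 genes higher and 121 lower. EoE against ESCC gave 8, and 4 when only these groups were fitted, where 4 enzymes passed the filter. EoE against control in suprabasal cells gave 4, and 7 over all deposited cells. Aldoa in EoE against control gained a call (adjusted p = 0.0407, edgeR) over all deposited cells thinned to 1 depth. In that setting 8 enzymes were lower, beside 629 of 1879 genes called lower and 605 higher. Pkm in EoE against control lost its call with first libraries, with only the groups compared and with age class as a covariate. Without each mouse in turn the numbers were 3 to 3 for ESCC against control, 5 to 7 for EoE against control, 6 to 8 for EoE against ESCC, 0 to 0 for age, and within ESCC classes 3 to 5 in basal (5 without ESCC mouse 8M), 2 to 3 in suprabasal and 2 to 3 in late cells. The cause of each change was not tested.

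Changes of sign were met only in differences that had not been called. In ESCC against control they were Pfkp thinned to 1 depth (0.0095) and Eno1 on means of per-cell CPM (-0.081), and within classes Hk1 in basal cells (0.029), and in late cells Pgk1 (0.10) and Ldha (0.099), with DESeq2. Pgk1 in late cells was also 0.17 with classes from Krt5 and Krtdap UMIs. Hk2 was -0.013 in EoE against control on means of per-cell CPM. In EoE against ESCC it was -0.058 with DESeq2, -0.055 with RLE, -0.060 without the filter and -0.35 on means of per-cell CPM. In the interaction over all deposited cells Hk2 was 0.019, Tpi1 0.098, Pgk1 -1.98, Eno1 0.33 and Ldha 0.27, and with DESeq2 Aldoa was 0.085 and Tpi1 0.27. In age with first libraries Pfkp was 0.20, Aldoa -0.094 and Ldha 0.061. Leaving out a mouse, the ranges that crossed 0 in age were -0.021 to 0.087 for Hk1, -0.061 to 0.56 for Hk2, -0.15 to 0.13 for Eno1 and -0.089 to 0.080 for Ldha. In ESCC against control they were -0.14 to 0.10 for Hk1 and -0.25 to 0.062 for Ldha in basal, -0.37 to 0.039 for Ldha in suprabasal, and -0.096 to 0.17 for Pgk1 and -0.038 to 0.11 for Ldha in late cells. No paired analysis was possible because the groups compared share no mouse and no replicate number.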
